A study of Mus musculus with 12 samples.

Results

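The mRNAs described here come from 10 genes of the integrated stress response: Atf4, Ddit3, Atf3, Nupr1, Ppp1r15a, Ppp1r15b, Trib3, Chac1, Asns and Sesn2. They were chosen by name, as targets or regulators of that response that are known for short reading frames upstream of the main one. No measured value entered the rule, but earlier results of these data were known when they were chosen. They are 10 of the 55416 gene identifiers counted in the 12 libraries, and all 10 passed the filter on low counts that left 16221 genes to test. The libraries are from Rpl31-FTA E14Tg2a.4 mouse embryonic stem cells, a line in which the ribosomal protein Rpl31 carries an AviTag behind a cleavable FLAG-TEV stretch. In all 4 groups the cells were transfected with plasmids for the N- and C-terminal fragments of ALIBi, a split biotinylating enzyme directed to the cytosol or to the endoplasmic reticulum (ER), and were lysed in buffer with cycloheximide. RNA was taken from the purified biotinylated ribosomes (ribosome-bound) and from lysate set aside beforehand (whole-cell), which gave cytosol ribosome-bound, cytosol whole-cell, ER ribosome-bound and ER whole-cell groups with 3 biological replicates each. The labels name no stress treatment, no siRNA on these libraries and no separate cultures or days, so the p-values given here reflect the spread among these libraries, which may be technical.

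In the integrated stress response, kinases that sense ER stress, amino acid shortage, viral RNA or haem shortage phosphorylate the alpha subunit of eIF2, and general initiation of translation falls. mRNAs such as Atf4 carry upstream frames that catch ribosomes in unstressed cells and let more of them reach the main frame when eIF2 is limiting. The ATF4 protein then switches on genes for amino acid supply, redox balance and, under lasting stress, cell death, and PPP1R15A closes the loop by steering protein phosphatase 1 to eIF2. The libraries hold fragments of whole mRNAs bound by labelled ribosomes, so a read does not say which frame a ribosome was on.

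The annotated leaders (the 5′ untranslated part) of these mRNAs were read from the GENCODE M21 transcript with the longest coding sequence of each gene. Upstream ATG codons were found in 8 of the 10. Trib3, with a leader of 176 bases, and Chac1, with 174, had none, so the description as mRNAs with upstream frames is not borne out for these 2 by the annotation used. Ppp1r15a had 7 upstream ATGs in 764 bases, although another coding transcript of the gene has a leader of 283 bases with 3. Atf4 had 3 in 594 bases, Ppp1r15b 3 in 604 and Ddit3 2 in 186, and Atf3, Nupr1, Asns and Sesn2 had 1 each, or 2 in another transcript of Asns. Of 14124 tested genes with an annotated leader, 49.3% had at least 1 upstream ATG and 17.8% had 3 or more, and the median leader was 169 bases long.

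The following windows of the mRNA sequence, 5′ to 3′, show upstream starts of the best-known regulated mRNAs and of the 3 mRNAs with the clearest differences below. Capitals mark the upstream ATG, and the numbers count the upstream ATGs from the 5′ end.
Atf4 2: cttgcggccaccATGgcgtattagaggcag
Atf4 3: ccggcctaagccATGgcgctcttcacgaaa
Ddit3 1: gtcgattatatcATGttgaagatgagcggg
Ppp1r15a 2: ggtgagtgggggATGgggcggcctttgagg
Ppp1r15b 2: agggtcttctctATGgtggagcgatctcac
Ppp1r15b 3: tccctagccgggATGgacctaaccgcggtc
Asns 1: tttttttactgtATGacgtctagatctggg
The second Atf4 frame is 3 codons long. The third starts 97 bases before the main start, runs for 59 codons and ends 83 bases past that start in another frame, the overlapping layout for which Atf4 is the textbook case. Both have a purine at the third base before the ATG and a G right after it, the context that favours initiation. Ddit3 has frames of 34 and 31 codons that share a stop, and the Ppp1r15b frames of 2, 8 and 51 codons all end before the main start.

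**Figure D1:**
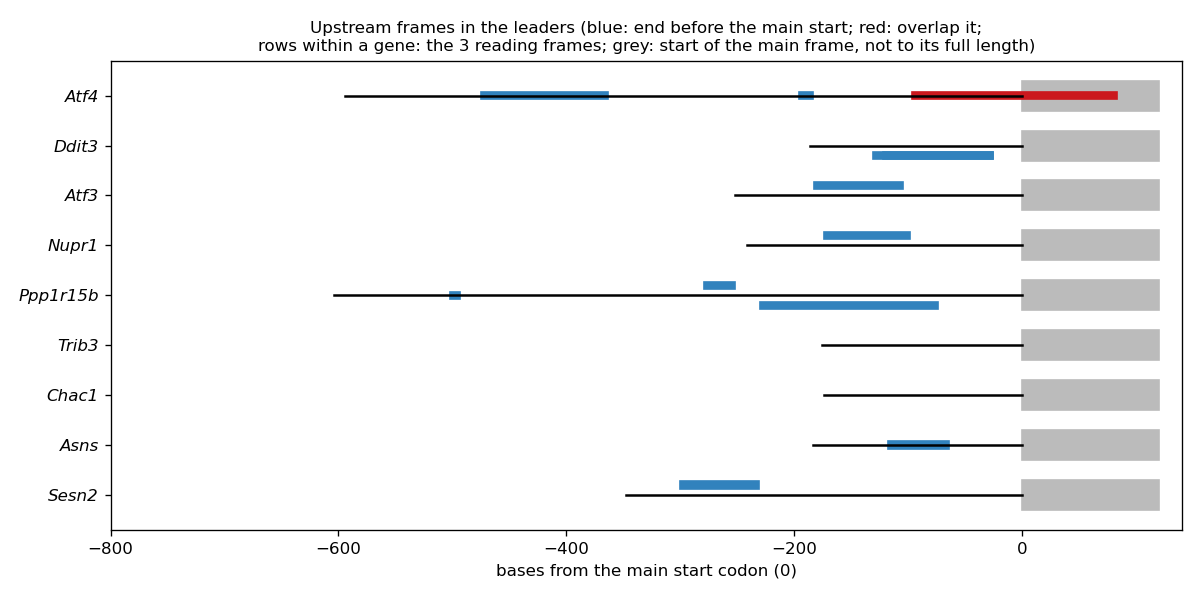
Upstream reading frames in the leaders of 9 of the mRNAs (Ppp1r15a is not drawn), in bases from the main start codon (0); black lines are leaders, blue frames end before the main start and red frames overlap it. Of these 9, Atf4 has a frame that overlaps the main start, and Trib3 and Chac1 have no upstream ATG.

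Each library had 21.1 to 26.9 M reads in genes. All 10 embryonic stem cell markers were measured, with a summed level of 9010 to 9340 CPM (counts relative to the TMM-scaled library size) in whole-cell libraries. There endoderm markers summed to at most 10.1 CPM, mesoderm markers to at most 19 CPM, neural markers to at most 18.6 CPM and fibroblast markers to at most 37.9 CPM. Fibroblast markers, with 4 of the 6 tested, were at 88.6 to 92.8 CPM in ER ribosome-bound libraries against 30.5 to 32.3 CPM in cytosol ribosome-bound ones. In whole-cell RNA they were at 35.1 to 35.8 CPM in the ER targeting and 35.2 to 37.9 CPM in the cytosol targeting. The part of such cells in the results was not tested. mRNAs encoded in mitochondria, which cytosolic ribosomes do not translate, summed to 18100 to 18900 CPM in whole-cell and 319 to 413 CPM in ribosome-bound libraries. In bulk libraries, fewer cells with an mRNA and less of it per cell cannot be told apart.

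In whole-cell RNA, none of the 10 mRNAs passed the test between cells with ER-targeted and cells with cytosol-targeted labelling. Per kb of transcript, Asns was the most abundant at 182 CPM in both whole-cell groups, followed by Atf4 at 119. Ddit3 at 65.1 ± 8.7 (SD, n = 3) and Nupr1 at 60.8 ± 3.6 (SD, n = 3) in the cytosol whole-cell group came next, and their libraries overlapped. Sesn2 stood at 35.8, Ppp1r15b at 24.6, Ppp1r15a at 17.6, Trib3 at 14.5, Chac1 at 5.4 and Atf3 at 0.843 CPM per kb in the same group, and from Sesn2 down no neighbours in this order overlapped. Between both whole-cell groups, log2 changes ran from -0.29 (Atf3) to 0.08 (Ddit3). In the quasi-likelihood test of edgeR, with p-values adjusted after Benjamini and Hochberg over all tested genes, 0 of the 10 passed an adjusted p of 0.05, with 0% of all tested genes called. DESeq2 also called 0 genes, and 634 genes (3.91%) had an unadjusted p under 0.05 in edgeR, with none of the 10 among them. The 95% interval of the change was -0.07 to 0.08 for Atf4 and -0.04 to 0.10 for Ppp1r15b, and -0.78 to 0.20 for the scarce Atf3.

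The 10 mRNAs did not move as a block on either ribosome pool. Between ER and cytosol ribosome-bound RNA, 4 were higher at the ER (Ppp1r15b, Ppp1r15a, Ddit3 and Atf4), where 29.1% of all tested genes were called higher. Asns, Nupr1 and Trib3 were lower, where 24.6% of all genes were lower, and the other 3 did not pass. The median of the 10 was 0.10 on the log2 scale, against 0.001 over all genes. Against whole-cell RNA, cytosol ribosomes had 3 of the 10 higher and 4 lower (20.8% and 33% of all genes), and ER ribosomes had 5 higher and 3 lower (32.5% and 30.6%). In either direction, 7 of the 10 were called between the pools, 7 in the cytosol and 8 at the ER, where 53.6%, 53.9% and 63.1% of all genes were, so the shares are near the background. Enrichment over whole-cell RNA itself differed between the targetings for 3 upward and 1 downward (24.8% and 18.6% of all genes, 43.4% in either direction), or 4 and 2 with a block for each lysate.

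**Figure D2:**
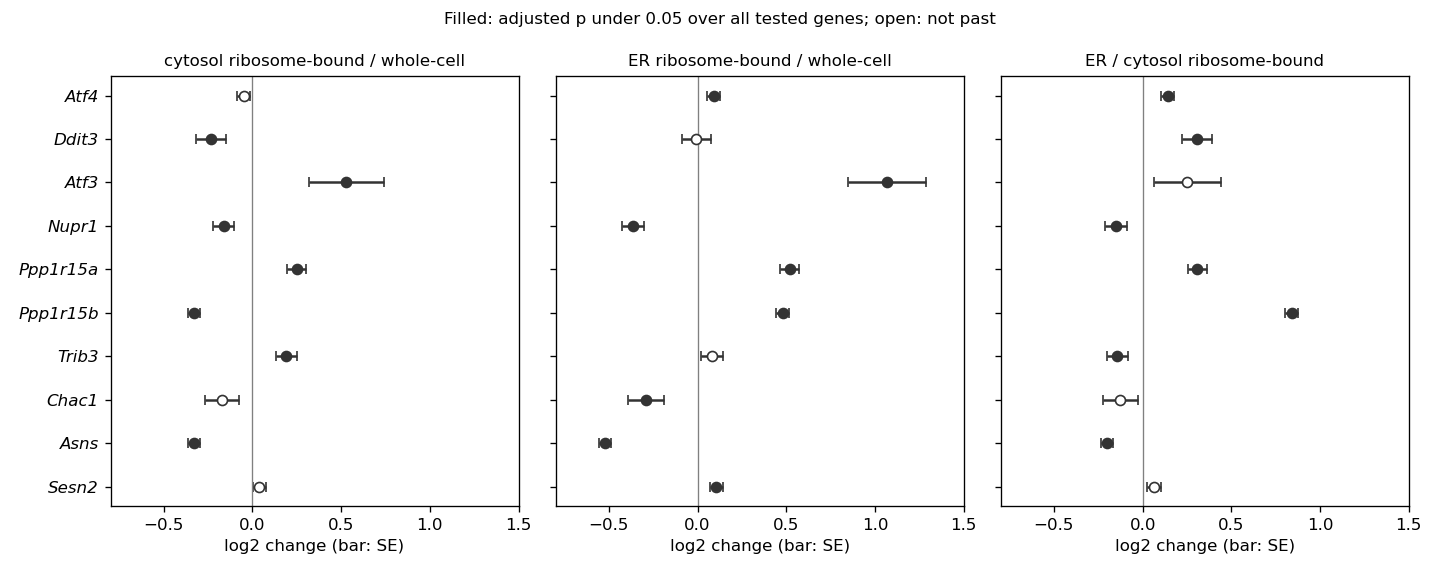
Log2 change of each mRNA (points, with SE bars) between ribosome-bound and whole-cell RNA in each targeting and between ER and cytosol ribosome-bound RNA; filled points passed an adjusted p of 0.05. Ppp1r15b lies at -0.33 on cytosol ribosomes and 0.48 on ER ribosomes, and Asns lies left of 0 in all 3 panels.

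Scaling matters for the small changes. The trimmed mean of M values (TMM) was computed against an ER ribosome-bound library. With a whole-cell library as the reference, an alternative added after the data were seen, the median log2 change of all genes in ER against cytosol ribosome-bound RNA moved by -0.058, and that of cytosol ribosome-bound against whole-cell RNA by 0.059. Another alternative, called cytosolic scaling below, used the summed reads of 73 mRNAs of cytosolic proteins (proteasome, glycolysis, translation factors and chaperonin). It moved the median by 0.175 on cytosol ribosomes and by 0.276 on ER ribosomes, both against whole-cell RNA. Abundant mRNAs weigh most in such a sum. Under TMM the sum was 72300 to 73300 CPM on cytosol ribosomes and 80900 to 82900 CPM in cytosol whole-cell RNA. The median change of the 73 was 0 there. Of 26 calls on the 10 mRNAs over 5 comparisons, 11 held under every alternative tried, and 15 were lost or turned under at least 1.

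Atf4 encodes the transcription factor at the centre of the response. Its level was 201.3, 195.5 and 197.1 CPM in the cytosol ribosome-bound libraries and 210, 199.6 and 205 CPM in the cytosol whole-cell libraries. On ER ribosomes it was at 212.6, 223 and 219.4 CPM, and in ER whole-cell RNA at 198.6, 216.9 and 200.1 CPM. The 3 ER ribosome-bound libraries thus lie above all cytosol ribosome-bound ones, while they overlap ER whole-cell RNA. The log2 change was 0.14 (SE 0.037; adjusted p = 0.0012) between the ribosome pools, 0.23 under cytosolic scaling and 0.08 with a whole-cell reference (adjusted p = 0.054). With the scaling recomputed it was lost without any 1 of 8 libraries, down to 0.06 without ER ribosome-bound replicate 2 (adjusted p = 0.21) and 0.07 without cytosol ribosome-bound replicate 2 (adjusted p = 0.18), and 0.08 to 0.10 without ER ribosome-bound replicates 1 or 3, ER whole-cell replicate 3 or any cytosol whole-cell replicate. It was also lost without the filter on low counts (0.08), and was called in all 12 leave-outs with scaling factors kept, from 0.13 to 0.16. Against whole-cell RNA it was 0.09 (SE 0.037; adjusted p = 0.032) at the ER, lost without any 1 of 4 ER libraries (ribosome-bound replicates 2 and 3, whole-cell replicates 1 and 3; 0.07 to 0.09 with scaling factors kept), but 0.37 under cytosolic scaling (adjusted p = 4e-11). In the cytosol it was -0.05 (SE 0.037; adjusted p = 0.27), with a 95% interval of -0.12 to 0.03, and turned to 0.13 under cytosolic scaling (adjusted p = 0.0026). How far the share of Atf4 mRNA on ER ribosomes exceeds its share of whole-cell RNA thus depends on the scaling.

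Ddit3 encodes CHOP, the transcription factor tied to cell death under lasting stress. It had 52.66, 40.19 and 54.74 CPM on cytosol ribosomes, 64.42, 49.3 and 60.06 CPM in the whole-cell RNA of the cytosol targeting, 60.97, 65.46 and 56.15 CPM on ER ribosomes and 58.03, 69.72 and 56.51 CPM in ER whole-cell RNA. Replicate 2 of the cytosol targeting was lowest and replicate 2 of the ER targeting highest in both fractions. On ER over cytosol ribosomes the log2 change was 0.31 (SE 0.084; adjusted p = 0.0021), but 0.12 without cytosol ribosome-bound replicate 2 (adjusted p = 0.22), 0.19 without ER ribosome-bound replicate 2 (adjusted p = 0.089) and 0.27 in DESeq2 (adjusted p = 0.13). It was -0.23 in the cytosol against whole-cell RNA (SE 0.084; adjusted p = 0.018), -0.06 under cytosolic scaling, and with scaling factors kept -0.11, -0.15 and -0.21 without ribosome-bound replicate 2 or whole-cell replicates 1 or 3, where the call was lost. Between libraries of the same replicate number, ribosome-bound over whole-cell RNA was 0.817, 0.815 and 0.911 in the cytosol and 1.05, 0.939 and 0.994 at the ER. The difference between these enrichments, 0.23 (SE 0.12; adjusted p = 0.12), did not pass, but it did with a block for each lysate, taking same-numbered libraries of a targeting as 1 lysate (adjusted p = 0.0028). At the ER the change was -0.01, or 0.27 under cytosolic scaling (adjusted p = 0.0041).

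Ddit3 shares 68 exon bases of 1713 with the opposite strand of Mars, which encodes the methionyl-tRNA synthetase. Mars was lower on cytosol ribosomes than in whole-cell RNA, as Ddit3 was, but by far more. It was at 203.7, 199.1 and 203.5 CPM in whole-cell RNA of the cytosol targeting but at 30.73, 29.08 and 33.26 CPM on cytosol ribosomes. The log2 change was -2.70 (SE 0.049; adjusted p = 1.1e-31), a 0.154-fold level, and 99.7% of tested genes had a higher change. At the ER it was -2.65 (SE 0.049), and between the ribosome pools 0.05 (SE 0.057; adjusted p = 0.51). Whether the counting used strand is not given in the sources used here, and how many Ddit3 reads came from the shared bases was not tested. A second Ddit3 identifier in the files, a model of 105 exon bases within Ddit3 that covers its upstream frame, was listed at 0 in all 12 libraries. All 105 bases are also exon bases of Ddit3 on the same strand, and how reads over both were counted is not given. The 0 therefore does not show that no reads fell there.

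Atf3 encodes a stress-induced partner and repressor, and was the scarcest of the 10, with 23 to 93 reads in a library. It was at 2.526, 2.594 and 2.184 CPM on cytosol ribosomes against 2.166, 1.277 and 1.577 CPM in whole-cell RNA, and at 2.146, 3.696 and 2.78 CPM on ER ribosomes against 1.401, 1.131 and 1.558 CPM. All 6 ribosome-bound libraries exceeded all ER whole-cell ones. The log2 change was 1.07 (SE 0.22; adjusted p = 6.4e-05) at the ER, the largest of the 10 against whole-cell RNA, and it held from 0.83 to 1.34 under every alternative. In the cytosol it was 0.53 (SE 0.21; adjusted p = 0.035) and was lost without any 1 of 4 libraries (ribosome-bound replicates 1 and 2, whole-cell replicates 2 and 3), at 0.37 without whole-cell replicate 2 and 0.48 to 0.50 without the others, with scaling factors kept. The difference between both enrichments was 0.54 (SE 0.31; adjusted p = 0.17), and the interval of -0.09 to 1.17 allows a wide range.

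Nupr1 encodes a small stress-induced chromatin protein. Its ER ribosome-bound libraries, at 41.8, 42.8 and 37.05 CPM, were below all ER whole-cell libraries, at 52.68, 56.1 and 48.15 CPM. The log2 change was -0.36 (SE 0.061; adjusted p = 2.7e-06), and -0.09 under cytosolic scaling (adjusted p = 0.22), the only alternative that lost it. On cytosol ribosomes Nupr1 was at 48.6, 43.56 and 42.92 CPM against 53.67, 49.56 and 47.88 CPM, which overlap, with a change of -0.16 (SE 0.059; adjusted p = 0.019) that was lost or turned in 19 of 32 alternatives. The call between the ribosome pools, -0.15 (SE 0.061; adjusted p = 0.038), was lost when replicate 1 of the cytosol pool or replicate 3 of the ER pool was left out (-0.09 in both, with scaling factors kept), and at -0.06 under cytosolic scaling.

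**Figure D3:**
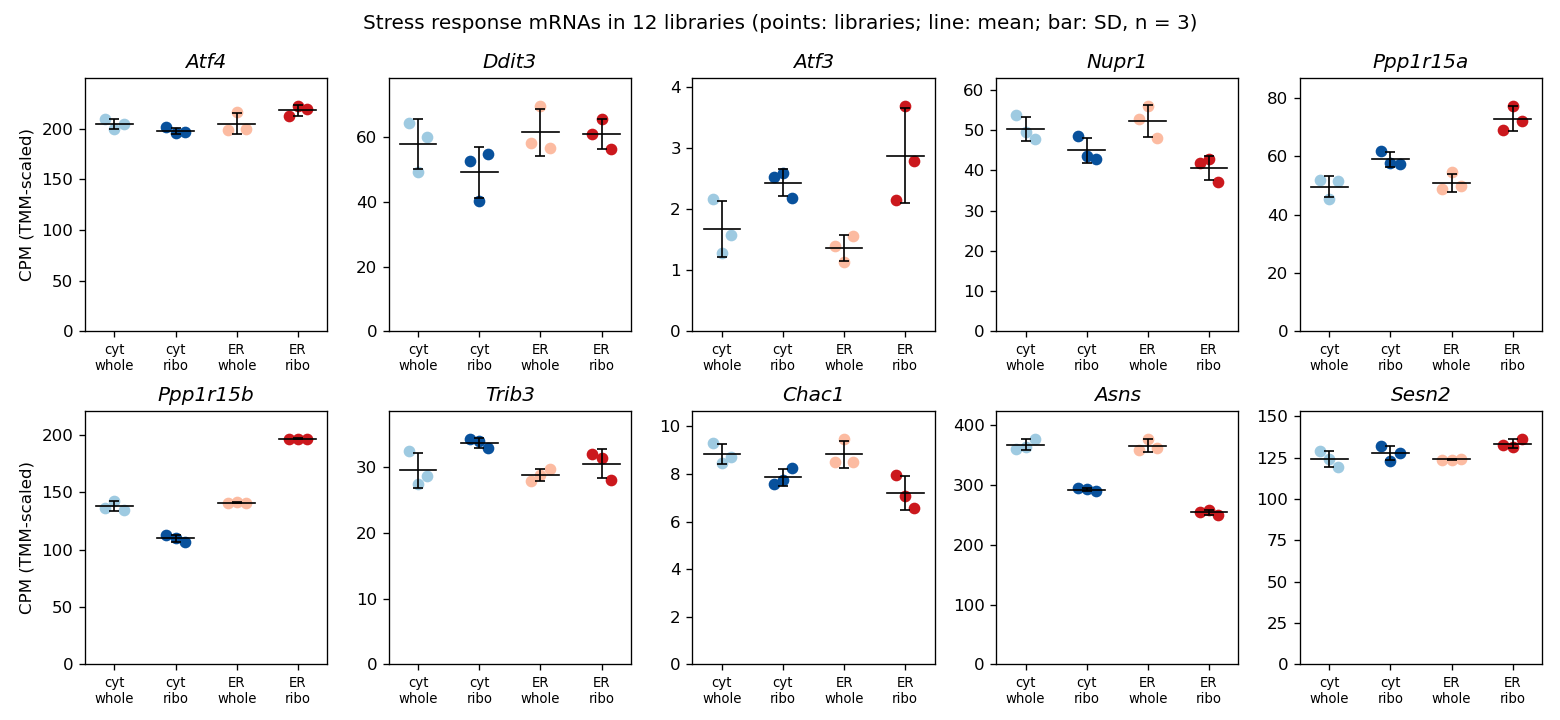
Level of each mRNA in every library (points, TMM-scaled CPM), with the mean and SD of 3 replicates for each of the 4 groups; each panel has its own axis from 0. The 3 ER ribosome-bound libraries of Ppp1r15b sit at 196 to 196.6 CPM, above all others, and those of Asns at 250.4 to 258.3 CPM, below all others.

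Ppp1r15b and Ppp1r15a encode regulatory subunits of the eIF2 phosphatase, and Ppp1r15b showed the largest difference between the ribosome pools among the 10. Ppp1r15b encodes CReP, the constitutive subunit, and Ppp1r15a encodes GADD34, the stress-induced one, and both proteins are known to associate with ER membranes. Ppp1r15b was at 112.4, 110.1 and 106.5 CPM on cytosol ribosomes and at 196.4, 196 and 196.6 CPM on ER ribosomes. In whole-cell RNA it lay between them, at 136.3, 142.5 and 134.5 CPM in the cytosol group and 140.7, 141.4 and 140.2 CPM in the ER group. None of these ranges overlapped except those of both whole-cell groups. It was 1.79-fold higher on ER than on cytosol ribosomes (log2 0.84, SE 0.035; adjusted p = 1.3e-21), and 19.9% of tested genes had a higher change. Against whole-cell RNA it was lower in the cytosol, at -0.33 (SE 0.036; adjusted p = 8.4e-10), and higher at the ER, at 0.48 (SE 0.035; adjusted p = 1.5e-14). The difference between both enrichments was 0.81 (SE 0.050; adjusted p = 2.3e-16), and these 4 calls held under every alternative. Cytosolic scaling gave -0.15 in the cytosol (adjusted p = 0.0011) and 0.76 at the ER. Ppp1r15b was the only 1 of the 10 whose calls against whole-cell RNA went in opposite directions in the 2 targetings. The share of all tested genes with such opposite calls was not counted, and the pattern is not particular to Ppp1r15b. All 8 amino acid transporters tested were lower in the cytosol and higher at the ER. Of 20 ER folding targets, 17 were lower and 2 higher in the cytosol, and all 20 were higher at the ER. Over all tested genes, 33% were lower and 20.8% higher in the cytosol, and 32.5% were higher at the ER. An unclassified gene, Gm26616, covers 640 of the 5594 exon bases of Ppp1r15b on the opposite strand.

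Ppp1r15a was higher on both ribosome pools. It was at 61.76, 57.65 and 57.31 CPM on cytosol ribosomes against 51.75, 45.34 and 51.51 CPM in whole-cell RNA, and at 69.02, 77.38 and 72.19 CPM on ER ribosomes against 48.77, 54.53 and 49.67 CPM. Each ribosome-bound group lay above its whole-cell group, and the ER pool above the cytosol pool, with no overlap. The log2 change was 0.25 (SE 0.054; adjusted p = 0.00016) in the cytosol, 0.52 (SE 0.053; adjusted p = 1.1e-10) at the ER and 0.31 (SE 0.052; adjusted p = 4e-06) between the pools, and these 3 calls held under every alternative. Under cytosolic scaling the change was 0.43 in the cytosol and 0.80 at the ER, and between the pools it was 0.20 without ER ribosome-bound replicate 2 when the scaling was recomputed. The difference between both enrichments was 0.27 (SE 0.076; adjusted p = 0.0036). It fell to 0.18 and 0.19 without cytosol whole-cell replicates 1 and 3 and to 0.17 without ER ribosome-bound replicate 2, and was no longer called there when the scaling was recomputed, but was called in all 12 leave-outs with scaling factors kept. It shares 12 exon bases of 2937 with Tulp2 on the opposite strand.

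The ratio of Ppp1r15b to Ppp1r15a reads within a library needs no scaling, and was examined after the values were seen. It was 1.82, 1.91 and 1.86 on cytosol ribosomes, 2.85, 2.53 and 2.72 on ER ribosomes, 2.63, 3.14 and 2.61 in cytosol whole-cell RNA and 2.89, 2.59 and 2.82 in ER whole-cell RNA. The cytosol ribosome-bound libraries were below all others, and the other 3 groups overlapped. The log2 difference between ER and cytosol ribosomes was 0.53, with a 2-sided exact permutation p of 0.1, the smallest that 3 against 3 libraries can give. Ppp1r15b over Atf4 moved likewise, from a mean of 0.554 on cytosol ribosomes to 0.899 on ER ribosomes (exact permutation p = 0.1).

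Asns encodes asparagine synthetase, a target of ATF4 that is induced by amino acid shortage. It was the most abundant of the 10 and lower on both ribosome pools: 295.2, 292.8 and 290 CPM on cytosol ribosomes against 360.9, 364.1 and 377.8 CPM in whole-cell RNA, and 255.1, 258.3 and 250.4 CPM on ER ribosomes against 358.8, 378 and 362.1 CPM. The ribosome-bound ranges lay below those of whole-cell RNA, and the ER pool below the cytosol pool. The log2 change was -0.33 (SE 0.033; adjusted p = 1.5e-10) in the cytosol and -0.52 (SE 0.034; adjusted p = 4e-16) at the ER, where 89.8% of tested genes had a higher change. Between the pools it was -0.20 (SE 0.034; adjusted p = 3.6e-06). These 3 calls held under every alternative, with -0.15, -0.25 and -0.12 under cytosolic scaling. The difference between both enrichments, -0.20 (SE 0.047; adjusted p = 8e-04), was -0.09 under cytosolic scaling (adjusted p = 0.11). The 73 mRNAs of cytosolic proteins used for that scaling had a median of -0.20 between the pools under TMM. Of them, 51 were lower and 10 higher, where 24.6% and 29.1% of all tested genes were. Against whole-cell RNA their median was 0 in the cytosol (27 lower, 29 higher) and -0.23 at the ER (53 lower, 7 higher). The Asns change between the pools is thus near that of these mRNAs.

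Trib3 encodes a pseudokinase that restrains ATF4 and CHOP. It was at 34.29, 33.88 and 32.83 CPM on cytosol ribosomes against 32.37, 27.33 and 28.65 CPM in whole-cell RNA, a log2 change of 0.19 (SE 0.060; adjusted p = 0.0076), or 0.37 under cytosolic scaling. That call was lost without cytosol whole-cell replicate 2, at 0.14 with scaling factors kept (adjusted p = 0.077). On ER ribosomes it was at 32.01, 31.4 and 27.98 CPM, with a change of 0.08 against whole-cell RNA (SE 0.062; adjusted p = 0.25), or 0.36 under cytosolic scaling. The change of -0.14 between the pools (SE 0.060; adjusted p = 0.045) was lost in 8 of 31 alternatives, among them cytosolic scaling (-0.06) and leaving out ER ribosome-bound replicate 3 (-0.09 with scaling factors kept).

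Chac1 encodes an enzyme that degrades glutathione. It was at 6.56 to 8.23 CPM in ribosome-bound and 8.47 to 9.49 CPM in whole-cell libraries, which did not overlap. At the ER the log2 change was -0.29 (SE 0.10; adjusted p = 0.012), lost when ribosome-bound replicate 3 (-0.23) or whole-cell replicate 2 (-0.24) of the ER targeting was left out, and -0.01 under cytosolic scaling. The cytosol change of -0.17 (95% interval -0.37 to 0.03) and the difference between the pools, -0.13 (95% interval -0.33 to 0.08), did not pass.

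Sesn2 encodes sestrin 2, a leucine sensor that restrains mTORC1. It was at 131.8, 123.2 and 127.9 CPM on cytosol ribosomes, 132.4, 131.3 and 136.6 CPM on ER ribosomes and 119.5 to 129.2 CPM in whole-cell RNA. The ER change of 0.11 (SE 0.038; adjusted p = 0.014) was lost without ER ribosome-bound replicate 3 (0.09), but was 0.38 under cytosolic scaling (adjusted p = 7.2e-10). In the cytosol it was 0.04 (95% interval -0.04 to 0.11) and did not pass, although it did in 9 of 32 alternatives, among them cytosolic scaling (0.21). Between the pools it was 0.06 (95% interval -0.01 to 0.14), or 0.15 under cytosolic scaling (adjusted p = 0.0028), which passed.

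**Figure D4:**
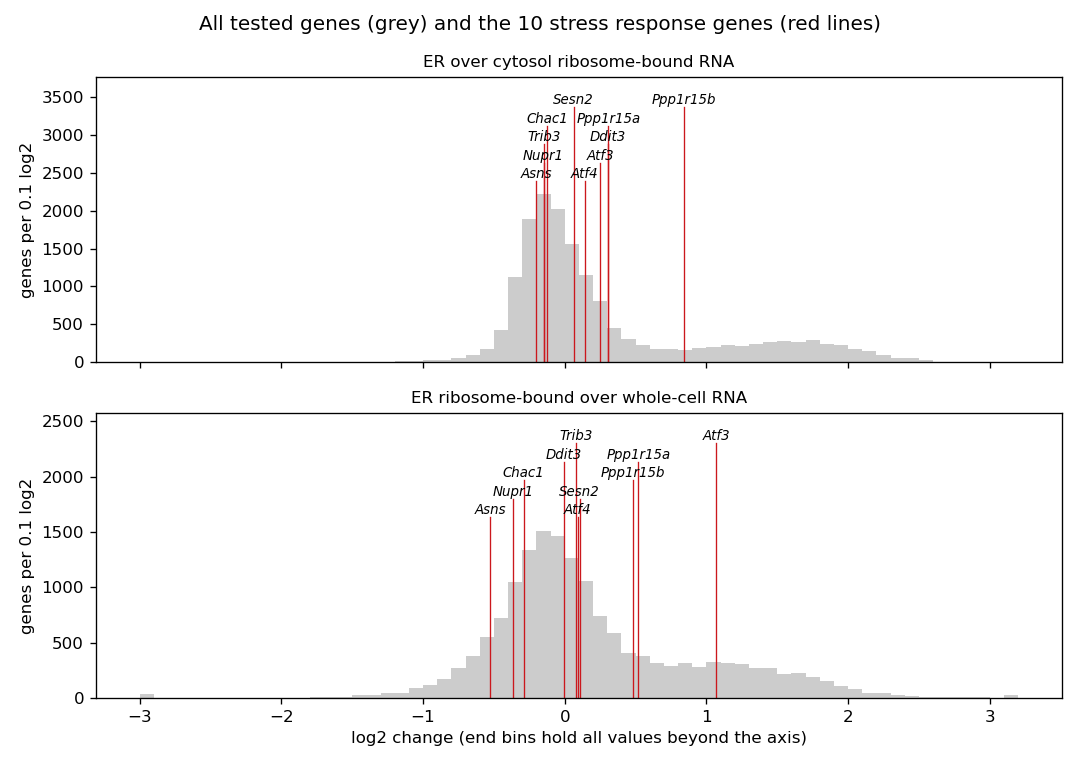
Log2 changes of all tested genes (grey, genes per bin of 0.1) with the 10 mRNAs as red lines, for ER over cytosol ribosome-bound RNA (top) and ER ribosome-bound over whole-cell RNA (bottom). In the top panel Ppp1r15b, at 0.84, stands between the main peak near 0 and a second group of genes further right, and the other 9 lie within or beside the main peak.

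Over all genes, medians differed slightly between classes by number of upstream ATGs. These shifts were not tested, and the genes are not independent of each other. On ER over cytosol ribosomes the median log2 change was -0.04 for 7158 genes with no upstream ATG, 0.00 for 3042 with 1, 0.03 for 2287 with 2 to 3 and 0.03 for 1637 with 4 or more. On cytosol ribosomes over whole-cell RNA the medians were -0.02, -0.07, -0.09 and -0.09, and on ER ribosomes over whole-cell RNA they went the other way, at 0.01, 0.01, 0.03 and 0.04. Among the 10, both mRNAs without an upstream ATG, Trib3 and Chac1, were at -0.14 and -0.13 on ER over cytosol ribosomes, and the 3 with at least 3 were at 0.14 (Atf4), 0.31 (Ppp1r15a) and 0.84 (Ppp1r15b). Nupr1, Asns, Sesn2 and Atf3, with 1 each, were at -0.15, -0.20, 0.06 and 0.25, and Ddit3, with 2, was at 0.31. Of these changes, those of Chac1, Sesn2 and Atf3 did not pass, and the calls on Trib3, Nupr1, Atf4 and Ddit3 were lost under some alternatives. Whether the count and the change go together among the 10 was not tested. Another 11 mRNAs known for upstream frames had 3 higher and 2 lower between the pools, where 29.1% and 24.6% of all tested genes were. Their median was -0.04 (4 higher and 0 lower under cytosolic scaling, with 0.04). Their highest was Bace1, a membrane protease, at 1.79 (SE 0.077), and their lowest Ibtk at -0.19 (SE 0.045), or -0.10 under cytosolic scaling, where it was not called.

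Upstream of Atf4, the mRNA of the ER-resident kinase PERK (Eif2ak3) was higher on ER ribosomes, at 1.85 (SE 0.078) over the cytosol pool and 1.14 (SE 0.074) over whole-cell RNA, and lower on cytosol ribosomes, at -0.67 (SE 0.087). The haem-regulated kinase Eif2ak1 was at 0.64 (SE 0.052) and Gcn1l1, the activator of the amino acid-sensing kinase, at 0.53 (SE 0.043) between the pools. Against whole-cell RNA, however, Gcn1l1 was lower on both pools, at -1.39 (SE 0.042) in the cytosol and -0.86 (SE 0.041) at the ER. Eif2ak1 was at 0.12 (SE 0.051) at the ER against whole-cell RNA. Between the pools, the eIF2 subunit Eif2s2 was at -0.39 (SE 0.034) and the exchange factor subunit Eif2b4 at -0.39 (SE 0.047). In all, 3 of 16 kinases, eIF2 and eIF2B subunits and adaptors were higher and 9 lower. Their median was -0.16 (3 higher and 6 lower with -0.07 under cytosolic scaling). Over all tested genes, 29.1% were higher and 24.6% lower between the pools. Of 10 partners of ATF4 from its protein family, 2 were higher and 3 lower between the pools, with Fos at 0.58 (SE 0.081) and Cebpd at -0.33 (SE 0.10), and a median of -0.08. Under cytosolic scaling 3 were higher and 1 lower with a median of 0.00, and Cebpd, at -0.24, was no longer called (adjusted p = 0.061). Jun, an early response gene, was at 1.06 (SE 0.071) on cytosol and 1.20 (SE 0.070) on ER ribosomes over whole-cell RNA.

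All 8 amino acid transporters tested were higher on ER than on cytosol ribosomes, with a median of 1.65. All 8 were lower on cytosol ribosomes than in the lysate, where the median was -0.67. Shares over all tested genes were 29.1% higher and 24.6% lower between the pools, and 33% lower in the cytosol against whole-cell RNA. Slc7a5, the light chain of the leucine transporter, was at 2.17 (SE 0.037) between the pools and Slc7a1, a cationic amino acid carrier, at 1.76 (SE 0.048). All 20 ER folding targets of the parallel ATF6 and XBP1 branches were higher too, with a median of 2.10 and the disulfide isomerases Pdia6 at 2.51 (SE 0.040) and Pdia4 at 2.47 (SE 0.039). Enzymes of amino acid and one-carbon synthesis, the group to which Asns belongs by function, were lower on ER ribosomes for 9 of 12, at a median of -0.27 between the pools (9 with -0.19 under cytosolic scaling). The serine pathway enzyme Psat1 was at -0.35 (SE 0.032) and Got1, an aspartate aminotransferase, at -0.36 (SE 0.039). Of 13 cytosolic tRNA synthetases 10 were lower, their median being -0.30 (9 lower and 1 higher with -0.22 under cytosolic scaling), with Yars at -0.48 (SE 0.033). For comparison, the 73 mRNAs used for cytosolic scaling had a median of -0.20 between the pools. Of 14 other targets, 7 were higher and 6 lower (7 and 2 under cytosolic scaling): the higher ones named by the rule, Vldlr at 2.17 (SE 0.093), Stc2 at 1.96 (SE 0.054) and Tnfrsf10b at 1.95 (SE 0.053), encode receptors or a secreted protein, and the lower ones, Sqstm1 at -0.37 (SE 0.035), Pmaip1 at -0.25 (SE 0.045) and Bbc3 at -0.16 (SE 0.050; not called at -0.08 under cytosolic scaling), do not encode secretory proteins.

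Across the 12 libraries and 13907 genes with a mean of at least 1 CPM, the levels most like those of Atf4 were those of Fut2, Kcnh1, Gramd1a, Tmsb10 and Kcnk4, with Pearson r of 0.938, 0.933, 0.927, 0.925 and 0.921 on log2 CPM. These are descriptions over libraries that share lysates and group structure. Among the 10, r with Atf4 ran from 0.80 for Ppp1r15b and 0.70 for Ddit3 down to -0.29 for Chac1 and -0.37 for Asns.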

How the data were processed

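Each deposited file holds the raw counts of 1 library by Ensembl gene. Per the submitters' processing notes, the authors used STAR 2.7.9a, HTSeq 0.11.2, GRCm39 and DESeq2; annotation release, strand setting and multimapping rule are not stated (not given in the sources used here). Totals for reads outside genes (8.75% to 12.54% of reads) were left out. GENCODE M21 (GRCm38) gave symbols for 52135 of 55416 identifiers, and leaders; no coordinates are printed because the builds differ. Symbols with 2 identifiers went to the identifier with more reads.

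Genes were kept with filterByExpr by group (16221), scaled with TMM, and fitted in 1 model of 4 groups with edgeR 4.0.16 in R 4.3.3. Each of 5 comparisons was tested, 2-sided, by quasi-likelihood, with Benjamini-Hochberg adjusted p-values under 0.05 called over all tested genes. The biological coefficient of variation was 3.6%. The SE is the absolute log2 change over the square root of F. Levels are TMM-scaled CPM, and errors cover counting and the spread between replicates, not PCR. The procedure was tested on simulated data in which few genes were changed, equally in both directions. That setting does not test how scaling acts where as many genes differ as here. Alternatives were other scalings, no filter, DESeq2 1.42.0, replicate blocks, the compared groups alone, leaving out each library, and other coding transcripts; 2 were added after the data were seen.

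All 10 genes are named, with Mars, up to 3 genes a direction from each pathway list by largest change among those called, and the 5 genes most like Atf4. The genes, lists and rules were chosen with earlier results of these data known. Replicates of a group differed by more than counting noise, so each counts as 1 sample. 1 upstream window of Ppp1r15a is not reported here.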

Additional observations from a re-analysis of the deposited data

Results flagged for a closer look

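Enrichment over whole-cell RNA differed between the ER and cytosol targetings by a test of the difference itself (edgeR's quasi-likelihood test of an interaction) for 4 of the 10 mRNAs, where 24.8% of all tested genes were called higher and 18.6% lower. The log2 difference was 0.81 for Ppp1r15b (SE 0.050; adjusted p = 2.3e-16), 0.27 for Ppp1r15a (SE 0.076; adjusted p = 0.0036), 0.14 for Atf4 (SE 0.052; adjusted p = 0.027) and -0.20 for Asns (SE 0.047; adjusted p = 8e-04). Of these, the Ppp1r15b value held under every alternative, from 0.73 to 0.91. The Atf4 value was lost in 20 of 31 alternatives.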

How the results depend on the processing

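Of 26 calls on the 10 mRNAs, 11 held under every alternative: Ppp1r15a, Ppp1r15b and Asns in ER against cytosol ribosome-bound RNA and in each ribosome-bound against whole-cell comparison, Atf3 at the ER against whole-cell RNA, and Ppp1r15b in the difference of enrichments. The other 15 were lost or turned under at least 1, and the cause was not tested. Cytosolic scaling turned Atf4 to 0.13 and Nupr1 to 0.01 in the cytosol against whole-cell RNA, and Ddit3 to 0.27 at the ER. Under it, 1 of the 10 was lower between the ribosome pools (2372 of all genes lower). In the cytosol against whole-cell RNA it gave 5 higher and 2 lower (all genes 5941 higher, 3379 lower). At the ER, Atf4, Ddit3, Atf3, Ppp1r15a, Ppp1r15b, Trib3 and Sesn2 were higher under it and 1 was lower (all genes 8839 higher, 1988 lower). In the difference of enrichments it gave 5 higher and 0 lower (all genes 1418 lower). In that difference 2 of the 10 were lower with RLE size factors, no filter, DESeq2, a whole-cell TMM reference and both replicate blocks, against 1. In the cytosol against whole-cell RNA 2 were lower with DESeq2 and with a whole-cell TMM reference, against 4. Without the filter 7 genes were lower between both whole-cell groups, against 0.

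With 1 library left out, with scaling recomputed or kept, the 10 had 2 to 4 higher and 1 to 4 lower between the ribosome pools, 1 to 4 higher and 2 to 4 lower in the cytosol and 3 to 5 higher and 2 to 3 lower at the ER against whole-cell RNA, and 1 to 4 higher and 1 to 3 lower in the difference of enrichments. Between both whole-cell groups 0 to 2 genes were lower, the 2 without cytosol whole-cell replicate 3. Over all genes the other counts kept within 1.5 times.

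The replicate numbers are shared across groups. Whole-cell RNA was set aside from the lysates, but the labels do not say that a number marks a lysate, and the pairing check did not settle it. Deviations from the group means of same-numbered ribosome-bound and whole-cell libraries correlated, across 9612 genes, at 0.096, 0.1 and 0.056 for the cytosol and -0.007, 0.258 and 0.262 for the ER. For different numbers these values ran from -0.148 to 0.059 in the cytosol and from -0.264 to 0.042 at the ER. Across targetings, replicate 2 of the cytosol and replicate 3 of the ER correlated at 0.235, in ribosome-bound and in whole-cell RNA. With the number as a replicate block the 10 had the same calls except for Nupr1 in the difference of enrichments, at -0.20 (adjusted p = 0.023), so that 2 were lower. With a block for each lysate, Ddit3 and Nupr1 passed in that difference, at 0.23 (adjusted p = 0.0028) and -0.21 (adjusted p = 0.0072), so that 4 were higher and 2 lower. The lysate block could not be fitted to comparisons between targetings, nor the compared groups alone to the difference of enrichments.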
